A study of Mus musculus with 25 samples.

Results

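The genes described here are 10 genes of endothelial identity, *Pecam1*, *Cdh5*, *Tie1*, *Esam*, *Cldn5*, *Emcn*, *Egfl7*, *Sox7*, *Sox17* and *Sox18*, followed in RNA-seq of the mouse *soleus* muscle. They were found by symbol among the 52636 genes of the count table, and all 10 were among the 16340 genes that passed the filter on low counts. The genes were chosen by their differences between exercised and rested mice in these same libraries, so their values in that comparison are given as levels, log2 fold changes and standard errors (SE) with no test. *Soleus* RNA came from 25 mice of 12 weeks, male and female, on a C57BL/6 background. All mice carried *Dnmt3a* flox/flox alleles with loxP sites around exon 19. WT mice carried no Cre, and mD3AKO mice (labelled KO) also carried mCK-Cre, in which the promoter of muscle creatine kinase, a gene of muscle fibers and heart, drives Cre late in fiber differentiation. *Dnmt3a* encodes a DNA methyltransferase. Exercised mice (labelled 60) had run on a treadmill for 30 minutes at 5% incline and 16 m/min and were killed 60 minutes later, and rested mice (labelled Bas) after 30 minutes on a sham treadmill, both after familiarization. Rested mice numbered 5 for WT and 7 for mD3AKO, and exercised mice 7 for WT and 6 for mD3AKO, with 2 to 4 mice of each sex in every group. Each library came from 1 mouse.

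Endothelial cells line every blood vessel, and in a slow, oxidative muscle such as the *soleus* a dense capillary bed surrounds the fibers. Neighboring endothelial cells are held together by adherens junctions, built on VE-cadherin, and by tight junctions, built on claudins, which together set how easily fluid and leukocytes cross the vessel wall. Their identity is kept by transcription factors of the ETS family and by the SoxF group, SOX7, SOX17 and SOX18. In RNA of whole muscle, fewer endothelial cells and less RNA of a gene in each of them cannot be told apart.

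The libraries held 22671457 to 37431801 counts (median 32189360). Mouse 15, a rested mD3AKO male, stood apart, with 39.5% of its counts in its 3 most abundant genes against 15.5% to 20.3% in the others and with the lowest total. Without mouse 15, the log2 fold changes of the 10 genes after exercise kept their signs, from −0.63 for *Cldn5* to 0.80 for *Sox17*. Mouse 12, also a rested mD3AKO male, had the highest mean of the 10 genes relative to its group, and values without it are given where they matter. *Dnmt3a* was at 93.4 to 131 CPM (counts scaled to the normalized total of each library) in the 12 WT mice and at 34.5 to 53.9 CPM in the 13 mD3AKO mice, so that the genotype labels held in every library.

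All 10 genes were detected in every library, from 90 counts for *Sox7* in its lowest library to 4710 for *Pecam1* in its highest. Levels of different genes are compared as RPKM (CPM divided by the exon length in kilobases). Among rested mice (n = 12), *Cdh5*, which encodes VE-cadherin, stood at 23.7 ± 2.52 RPKM (SD), and *Pecam1*, which encodes the adhesion protein CD31 at endothelial cell contacts, at 18.3 ± 1.57 RPKM. Next came *Egfl7*, a secreted protein of the vessel wall, at 13.1 ± 1.94 RPKM, *Esam*, an adhesion molecule of tight junctions, at 11.6 ± 1.38 RPKM, and *Tie1*, a receptor tyrosine kinase partner of the angiopoietin receptor, at 10.1 ± 1.17 RPKM. *Cldn5*, the main endothelial claudin, stood at 7.92 ± 2.17 RPKM and *Emcn*, a sialomucin of capillary and venous endothelium, at 3.86 ± 0.432 RPKM. Of the SoxF genes, *Sox18* was the highest at 4.80 ± 1.27 RPKM, with *Sox7* at 1.61 ± 0.466 RPKM and *Sox17* at 1.48 ± 0.315 RPKM. Neighbors in this order that lay closer than the larger of their SDs were *Egfl7* and *Esam*, *Tie1* and *Cldn5*, *Sox18* and *Emcn*, and *Sox7* and *Sox17*. Their order can shift with the exon lengths used, which ran from 1414 bases for *Cldn5* to 6228 for *Pecam1*. Among exercised mice (n = 13), *Sox17* stood at 2.53 ± 0.293 RPKM against 1.96 ± 0.603 RPKM for *Sox7*.

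The genes lie on 9 chromosomes of mm10 and only *Egfl7* and *Sox18*, both on chromosome 2, share one. *Egfl7* spans positions 26580014 to 26593120, and 64 of its exon bases are shared with *Agpat2* on the opposite strand, a gene with up to 954 counts per library. Whether the strand was used in counting is not given in the sources used here, so reads in those bases may belong to either gene. *Egfl7* also holds the microRNA genes *Mir126a* and *Mir126b* and shares 264 exon bases with *Gm20532* on the same strand. Each of these had 0 counts in every library. *Sox17*, on chromosome 1 at 4490931 to 4497354, shares 804 exon bases with *Gm37587* on the opposite strand, which had at most 9 counts in a library. *Cdh5* spans *Gm29682*, with no exon base in common and at most 6 counts. The other 7 genes overlapped no other gene.

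For 4 of the 10 genes, *Cldn5*, *Emcn*, *Egfl7* and *Tie1*, RefSeq promoter windows of 300 bases were at hand (250 before the transcription start and 50 after it, GRCm38.p6). A window of each is shown for that reason alone. Capitals mark each AGGAA, a word contained in some of the sites that ETS factors bind, or its reverse complement TTCCT. Other forms of these sites were not searched and are not marked. The window of *Egfl7* is the second of its 3, and all run 5′ to 3′ on the strand of the gene.
Cldn5, chr16:18776597-18776896, plus strand: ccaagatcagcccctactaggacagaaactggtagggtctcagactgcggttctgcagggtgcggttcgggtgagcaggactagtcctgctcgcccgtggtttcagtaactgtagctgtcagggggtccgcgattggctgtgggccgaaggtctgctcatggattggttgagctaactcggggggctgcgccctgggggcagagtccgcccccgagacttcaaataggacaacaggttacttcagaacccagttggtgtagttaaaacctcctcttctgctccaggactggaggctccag
Emcn, chr3:137340828-137341127, plus strand: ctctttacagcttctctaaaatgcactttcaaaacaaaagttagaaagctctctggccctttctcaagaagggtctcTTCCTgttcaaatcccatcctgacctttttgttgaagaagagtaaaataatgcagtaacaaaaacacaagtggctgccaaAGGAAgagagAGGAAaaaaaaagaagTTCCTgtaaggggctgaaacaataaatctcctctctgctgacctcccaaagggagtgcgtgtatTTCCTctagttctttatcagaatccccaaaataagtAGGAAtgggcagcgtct
Egfl7, chr2:26583615-26583914, plus strand: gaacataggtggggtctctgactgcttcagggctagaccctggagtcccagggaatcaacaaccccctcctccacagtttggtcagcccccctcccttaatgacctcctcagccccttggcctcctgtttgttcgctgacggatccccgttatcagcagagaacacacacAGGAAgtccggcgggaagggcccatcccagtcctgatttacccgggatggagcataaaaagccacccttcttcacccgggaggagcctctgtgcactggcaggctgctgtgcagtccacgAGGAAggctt
Tie1, chr4:118489800-118490099, minus strand: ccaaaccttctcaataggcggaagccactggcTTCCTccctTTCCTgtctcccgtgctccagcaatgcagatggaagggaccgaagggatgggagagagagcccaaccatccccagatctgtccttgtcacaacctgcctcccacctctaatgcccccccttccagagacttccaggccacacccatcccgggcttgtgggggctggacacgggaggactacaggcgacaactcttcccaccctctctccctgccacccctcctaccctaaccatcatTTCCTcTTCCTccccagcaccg
The window of *Emcn* held 6 matches, that of *Tie1* 4, that of *Egfl7* 2 (4 and 0 in its other windows) and that of *Cldn5* 0. Of all 32851 promoter windows of this length, 66.7% held at least 1 match on either strand. The word ACAAT (or ATTGT), contained in sites of SOX factors, was found once in the window of *Emcn* and in none of the other windows of these genes, against 31% of all windows. A match is only a run of letters, and binding was not measured.

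The first comparison concerned exercise, averaged over WT and mD3AKO mice. The 10 genes did not move together. *Sox17*, *Esam*, *Sox7* and *Sox18* had higher mean levels in exercised mice and the other 6 lower ones, with log2 fold changes from 0.77 for *Sox17* to −0.59 for *Cldn5*. For orientation only, edgeR called 5.7% of all 16340 genes higher and 4.69% lower (adjusted p under 0.05), and of the 10 genes 2 and 4, counts from which nothing is read because the choice of the genes rested on this contrast. Their median log2 fold change was −0.10, beside −0.00088 over all genes. The sum of the 10 genes ran from 356 to 473 CPM in rested mice (median 387) and from 320 to 416 CPM in exercised mice (median 371), with wide overlap.

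**Figure D1:**
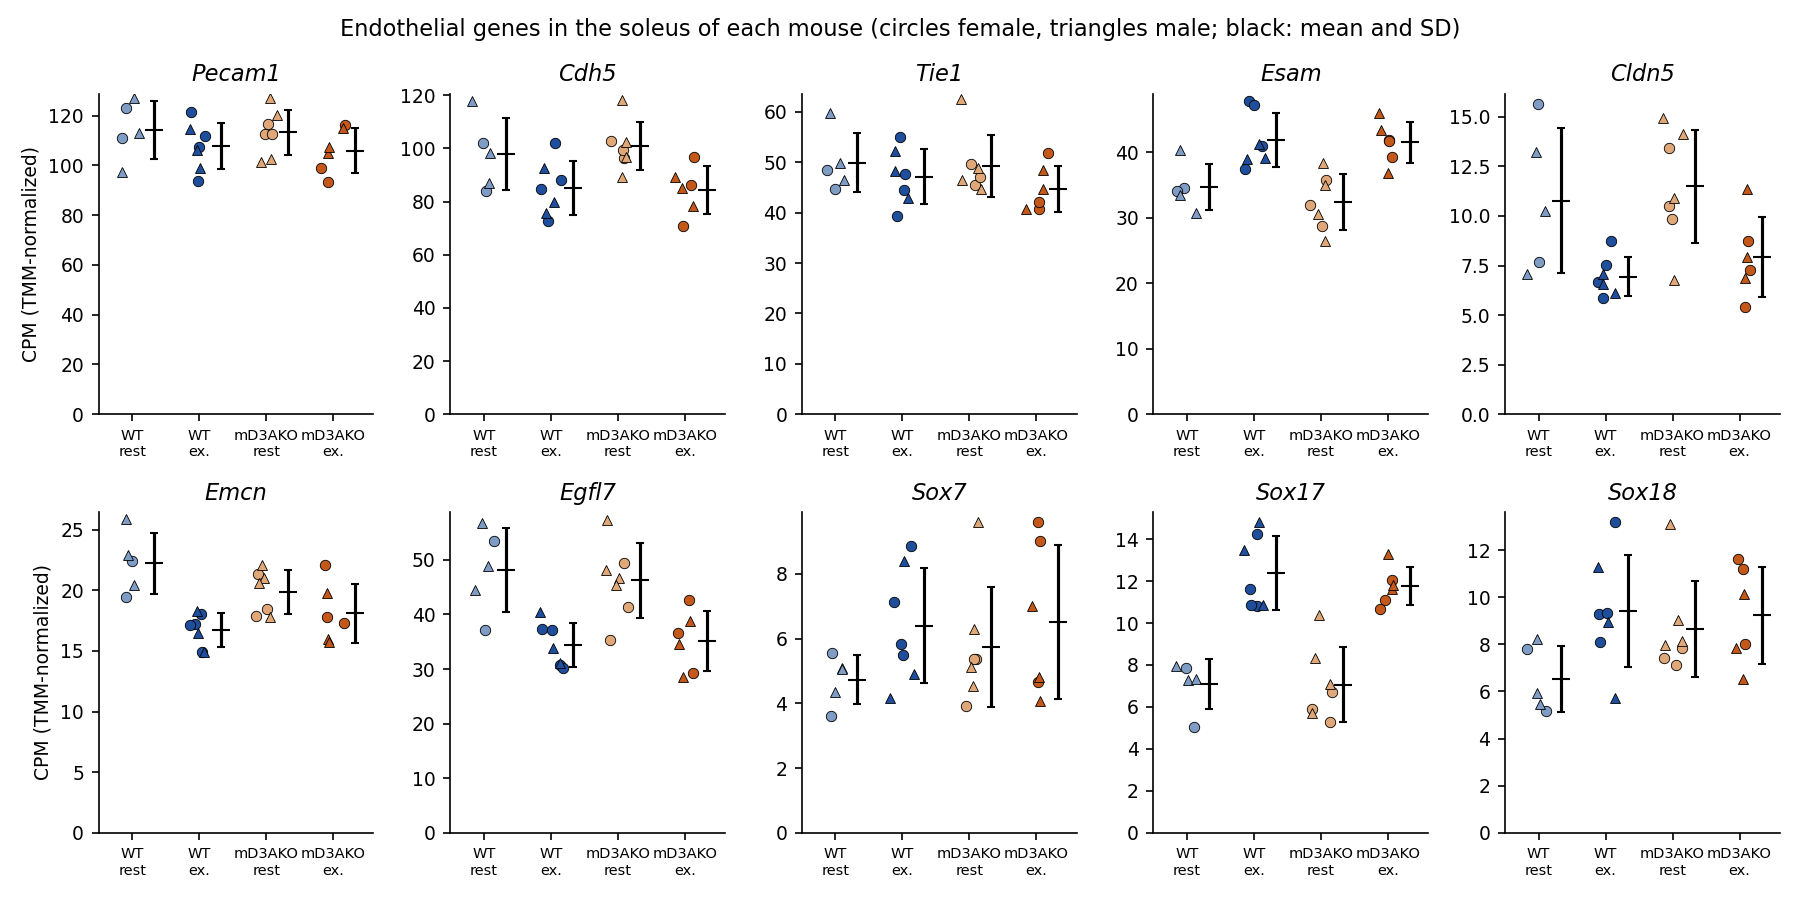
TMM-normalized CPM of the 10 endothelial genes in each of 25 mice (vertical axes, CPM, from 0), by genotype and exercise (ex., exercised), with circles for females, triangles for males and black bars for mean and SD. *Sox17* is the gene for which all 13 exercised mice lie above all 12 rested mice, at 10.7 to 14.8 CPM against 5.04 to 10.4 CPM.

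*Sox17* encodes the SoxF factor tied most closely to arterial endothelium. In the 5 rested WT mice it was at 5.04, 7.29, 7.35, 7.84 and 7.93 CPM, and in the 7 rested mD3AKO mice it ranged from 5.28 to 10.4 CPM (median 6.71). After exercise it ranged from 10.8 to 14.8 CPM in the 7 WT mice (median 11.6) and from 10.7 to 13.3 CPM in the 6 mD3AKO mice (median 11.7). Rested and exercised mice did not overlap over both genotypes together, as for 1.07% of all tested genes, nor within WT (3.24% of genes) or within mD3AKO mice (2.24%). The gap between them was narrow at mouse 12, with 10.4 CPM, whereas the next rested mouse was at 8.32 CPM. The log2 fold change was 0.77 (SE 0.096), or 1.71-fold, with 0.80 (SE 0.14) in WT and 0.74 (SE 0.13) in mD3AKO mice. Without mouse 12 it was 0.84 (SE 0.083).

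*Esam* encodes an immunoglobulin-family adhesion molecule at the contacts between endothelial cells, also found on platelets. The 5 rested WT mice had 30.8, 33.5, 34.1, 34.5 and 40.4 CPM, and the 7 rested mD3AKO mice 26.4 to 38.4 CPM (median 31.9). After exercise the 7 WT mice had 37.4 to 47.9 CPM (median 40.9) and the 6 mD3AKO mice 36.9 to 46.0 CPM (median 41.8). All 13 exercised mice were above the median of the rested mice and 8 of them above every rested mouse. The log2 fold change was 0.31 (SE 0.060), with 0.27 (SE 0.086) in WT and 0.35 (SE 0.082) in mD3AKO mice.

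*Cldn5* had the largest difference among the genes that were lower after exercise. The 5 rested WT mice had 7.07, 7.67, 10.3, 13.2 and 15.7 CPM, and the 7 rested mD3AKO mice 6.78 to 15.0 CPM (median 10.9). Exercised mice had 5.89 to 8.73 CPM in WT (n = 7, median 6.69) and 5.40 to 11.4 CPM in mD3AKO (n = 6, median 7.61). Thus 12 of 13 exercised mice were below the rested median, but 5 were below every rested mouse. Its log2 fold change was −0.59 (SE 0.13), with −0.63 (SE 0.19) in WT and −0.55 (SE 0.19) in mD3AKO mice.

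*Egfl7* was at 37.1, 44.4, 48.9, 53.5 and 56.8 CPM in the 5 rested WT mice and at 35.3 to 57.3 CPM in the 7 rested mD3AKO mice (median 46.6). In exercised mice it was at 30.2 to 40.5 CPM in WT (n = 7, median 33.9) and at 28.6 to 42.6 CPM in mD3AKO (n = 6, median 35.6). All 13 exercised mice were below the rested median and 7 of them below every rested mouse, so that the groups overlapped only at the low end of rest. The log2 fold change was −0.44 (SE 0.081), with −0.48 (SE 0.12) in WT and −0.40 (SE 0.11) in mD3AKO mice.

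*Emcn* encodes endomucin, a glycoprotein of the luminal surface. Its rested WT mice were at 19.5, 20.4, 22.4, 22.9 and 25.9 CPM, and the 7 rested mD3AKO mice at 17.8 to 22.1 CPM (median 20.6). Exercised WT mice were at 14.9 to 18.3 CPM (n = 7, median 17.1) and exercised mD3AKO mice at 15.7 to 22.1 CPM (n = 6, median 17.5). In WT mice every exercised value lay below every rested value, whereas in mD3AKO mice the groups overlapped, with mouse 23 at the top of the exercised group. As given for *Sox17*, 3.24% of all genes did not overlap in WT mice. The log2 fold change was −0.27 (SE 0.060) over both genotypes.

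*Cdh5*, the core of the adherens junction, differed by less. The 5 rested WT mice had 84.0, 86.8, 98.4, 102 and 118 CPM, and the 7 rested mD3AKO mice 89.0 to 118 CPM (median 99.3). Exercised mice had 72.6 to 102 CPM in WT (n = 7, median 84.7) and 70.8 to 96.9 CPM in mD3AKO (n = 6, median 85.7), and 12 of the 13 were below the rested median. Its log2 fold change was −0.23 (SE 0.063), and −0.19 without mouse 13, a rested WT male with the highest WT value.

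The levels of *Pecam1* and *Tie1* overlapped between rested and exercised mice. *Pecam1* ranged from 97.5 to 127 CPM in rested mice (median 113) and from 93.3 to 121 CPM in exercised mice (median 107), a log2 fold change of −0.09 (SE 0.052). *Tie1* ranged from 44.7 to 62.5 CPM at rest (median 47.7) and from 39.3 to 55.1 CPM after exercise (median 44.7). Its log2 fold change was −0.11 (SE 0.063), and −0.077 (SE 0.057) without mouse 12. Leaving out each mouse in turn gave −0.12 to −0.069 for *Pecam1* and −0.13 to −0.071 for *Tie1*, the smallest differences without mouse 13. Both were below the rested median in most exercised mice, 9 and 8 of 13, and 2 and 7 exercised mice were below every rested mouse. The highest of these 7 for *Tie1*, at 44.67 CPM, lay just under the lowest rested mouse at 44.69 CPM.

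The other SoxF genes varied more between mice than *Sox17*. *Sox18*, a factor of arterial and lymphatic development, ranged from 5.16 to 13.1 CPM in rested mice (median 7.84) and from 5.70 to 13.2 CPM in exercised mice (median 9.28). *Sox7*, the third SoxF factor, ranged from 3.61 to 9.62 CPM at rest (median 5.12) and from 4.06 to 9.60 CPM after exercise (median 5.82). The same log2 fold change of 0.31 was found for both, with an SE of 0.13 for *Sox18* and 0.16 for *Sox7*, and 11 and 8 of the 13 exercised mice were above the rested median. Mouse 12 had the highest rested value of both. Without it the log2 fold change was 0.38 (SE 0.12) for *Sox18* and 0.40 (SE 0.15) for *Sox7*.

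**Figure D2:**
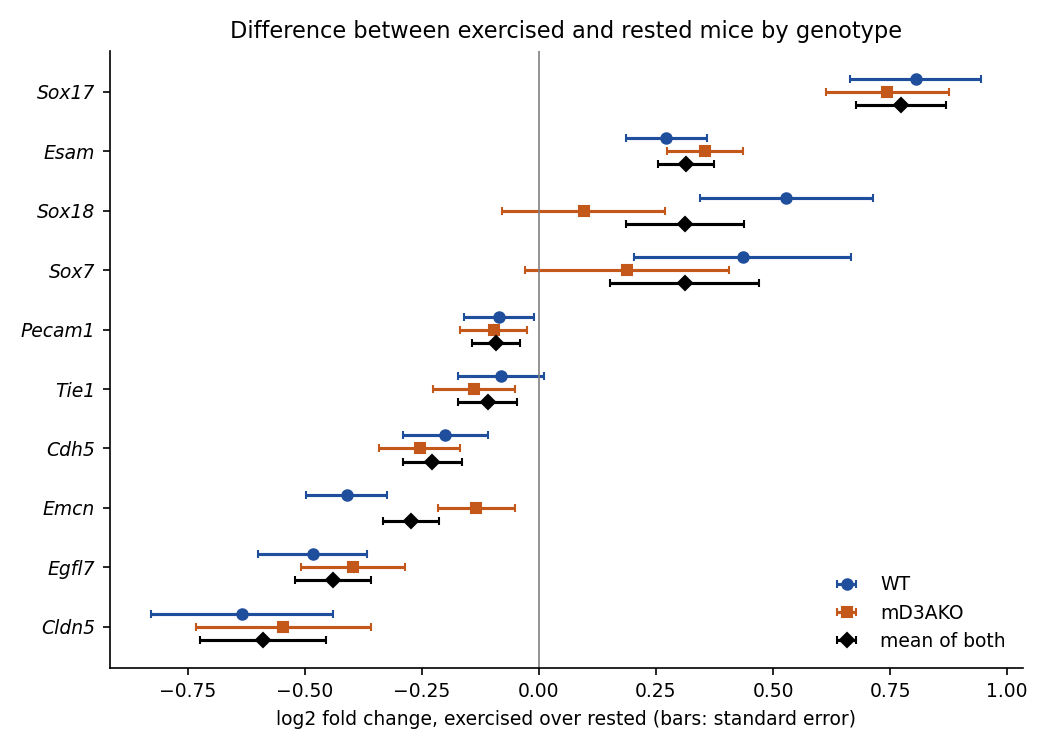
Log2 fold change of exercised over rested mice for each gene (horizontal axis; points are edgeR estimates and bars their SE) in WT mice (blue circles), mD3AKO mice (orange squares) and the mean of both (black diamonds). *Sox17* lies at the right at 0.77 and *Cldn5* at the left at −0.59, and the estimates of the genotypes lie farthest apart for *Sox18* and *Emcn*.

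As a library can hold more or less endothelial RNA, each gene was also set against *Pecam1* within the same library. The count of *Esam* per *Pecam1* count was 0.293 ± 0.0209 (SD) in the 12 rested mice and 0.391 ± 0.0316 in the 13 exercised mice, and the groups did not overlap (0.255 to 0.317 against 0.342 to 0.446). The ratio of *Sox17* was 0.0624 ± 0.0132 and 0.114 ± 0.0141, also without overlap (0.0454 to 0.0820 against 0.0893 to 0.133). Of the 16339 other genes tested, 1.21% did not overlap on this ratio, and as *Pecam1* itself had a log2 fold change of −0.09, dividing by it widens a higher value.

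On the other side, the ratio of *Egfl7* was 0.414 ± 0.0565 at rest and 0.325 ± 0.0359 after exercise, and that of *Cldn5* 0.0981 ± 0.0243 and 0.0691 ± 0.0124, with overlap in both. That of *Cdh5* was 0.876 ± 0.0637 and 0.792 ± 0.0447, and that of *Emcn* 0.184 ± 0.0167 and 0.163 ± 0.0181. The ratios of the other SoxF genes overlapped, at 0.0468 ± 0.0121 and 0.0604 ± 0.0180 for *Sox7* and at 0.0683 ± 0.0161 and 0.0874 ± 0.0196 for *Sox18*. The ratio of *Tie1* stood at 0.436 ± 0.0367 and 0.431 ± 0.0318, which differ by less than 1 SD. These ratios describe the same libraries that served to choose the genes and carry no test.

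**Figure D3:**
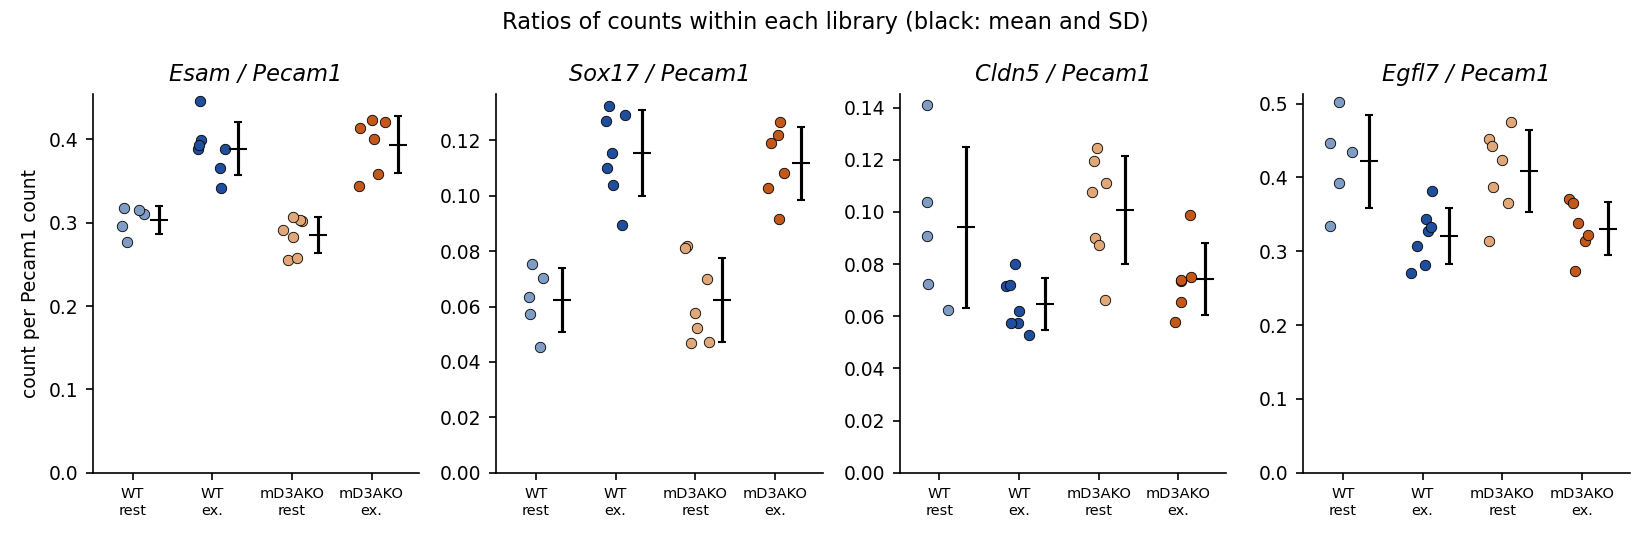
Counts of *Esam*, *Sox17*, *Cldn5* and *Egfl7* per count of *Pecam1* in each library (vertical axes, ratio from 0; points are mice, black bars mean and SD), by genotype and exercise. All exercised mice lie above all rested mice for *Esam* (at least 0.342 against at most 0.317) and for *Sox17*, a lack of overlap found for 1.21% of genes, and the groups overlap for *Cldn5* and *Egfl7*.

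The second comparison asked whether the muscle knockout altered these genes, which their choice had not used. In edgeR, 0 of the 10 were called between mD3AKO and WT mice, averaged over rest and exercise, beside 0.269% of all genes. None of the 10 had an unadjusted p under 0.05 in this averaged comparison, beside 1018 of all 16340 genes. DESeq2 also called 0 of the 10. The log2 fold changes lay between −0.052 for *Esam* and 0.19 for *Sox18* (SE 0.13). Without mouse 12 that of *Sox18* was 0.12 (SE 0.12), and that of *Sox7* was 0.065 (SE 0.15) against 0.15 (SE 0.16) with it. The 95% interval of the difference was −0.13 to 0.087 for *Pecam1* and −0.11 to 0.15 for *Cdh5*. For the genes of lower level it was wider, −0.13 to 0.42 for *Cldn5* and −0.072 to 0.45 for *Sox18*, so that moderate differences in those genes were not detectable with these mice. At rest alone the difference of *Sox18* was 0.41 (SE 0.19, 95% interval 0.023 to 0.79). Its p in edgeR was 0.039 unadjusted and 1.00 adjusted. Mouse 12 was among the rested mD3AKO mice, and this difference was not fitted without it. Its *Sox18* level was 13.1 CPM, with 7.14 to 9.02 CPM in the other rested mD3AKO mice and 5.16 to 8.23 CPM in rested WT mice.

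The interaction, the response of mD3AKO mice minus that of WT mice, was called for 0% of the 16340 genes in edgeR and for 0 in DESeq2, with 403 and 386 genes at an unadjusted p under 0.05. Among the 10 genes only *Emcn* had an unadjusted p under 0.05 (adjusted p = 1.00 in edgeR). Its log2 fold change after exercise was −0.41 (SE 0.086) in WT and −0.13 (SE 0.083) in mD3AKO mice, a difference of 0.28 with a 95% interval of 0.031 to 0.52. This difference of *Emcn* was 0.21 (SE 0.12) without mouse 13 and 0.30 (SE 0.12) without mouse 12. For *Sox18* the responses were 0.53 (SE 0.19) in WT and 0.095 (SE 0.17) in mD3AKO mice, and the difference of −0.43 (SE 0.25) became −0.30 (SE 0.23) without mouse 12. For *Sox17*, *Pecam1* and *Egfl7* the differences between genotypes were −0.060 (SE 0.19), −0.011 (SE 0.10) and 0.086 (SE 0.16). Without mouse 12 they were 0.061 (SE 0.16), 0.018 (SE 0.10) and 0.15 (SE 0.16). Without mouse 13 they were −0.075 (SE 0.20), −0.055 (SE 0.11) and 0.016 (SE 0.16).

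Sex, with males and females in every group, gave a further comparison. In edgeR 8.15% of 17389 genes differed between males and females, and 3897 had an unadjusted p under 0.05. Of the 10 endothelial genes 0 were called, 0 also by DESeq2, and 1 had an unadjusted p under 0.05 in edgeR. That gene was *Sox17*, with 7.72 ± 1.44 CPM (SD) in 7 rested males and 6.15 ± 1.14 CPM in 5 rested females, and 12.6 ± 1.46 CPM in 6 exercised males and 11.6 ± 1.26 CPM in 7 exercised females. Its difference, males minus females, was 0.23 (SE 0.090, adjusted p = 0.12 in edgeR, 0.0497 to 0.57 over the alternatives). It was past the threshold only without mouse 7, a rested mD3AKO male. With library totals in place of TMM this difference was 0.11 (SE 0.11). The other 9 genes differed between the sexes by −0.065 to 0.10, the lowest being *Sox7*, at −0.15 without mouse 12.

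The response to exercise differed between the sexes for 0.046% of genes, or 8, and 570 had an unadjusted p under 0.05 in edgeR. Of the 10 genes 0 were called, 0 also by DESeq2, and 0 had an unadjusted p under 0.05 in edgeR. The largest difference was that of *Sox7*, with a log2 fold change of 0.63 (SE 0.23) in females and 0.00055 (SE 0.21) in males, a difference of −0.63 (SE 0.31, adjusted p = 1.00 in edgeR). Next was *Sox18*, with 0.55 (SE 0.19) in females and 0.087 (SE 0.17) in males, a difference of −0.46 (SE 0.25). Without mouse 12, a rested male, the differences were −0.48 (SE 0.29) for *Sox7* and −0.36 (SE 0.24) for *Sox18*. *Sox17* was higher after exercise in both, by 0.91 (SE 0.13) and 0.72 (SE 0.12), and exercised and rested mice overlapped in neither sex (5.69 to 10.4 against 10.9 to 14.8 CPM in males, 5.04 to 7.84 against 10.7 to 14.2 CPM in females), beside 3.59% of all genes in males and 3.18% in females.

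Other endothelial genes were examined as lists by role, 65 genes in all, of which 63 were tested. After exercise 13 were called higher and 16 lower in edgeR, beside 5.7% and 4.69% of all genes, and their median log2 fold change was −0.088. These lists were drawn up with earlier results of these data known and carry no test as lists.

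Of 12 junction and surface proteins, 1 was higher, 1 lower and 10 were not called. *Robo4*, an endothelial guidance receptor, rose by 0.36 (SE 0.072), and *Clec14a*, a C-type lectin of the endothelial surface, fell by 0.61 (SE 0.065), from 13.7 ± 1.36 to 8.88 ± 1.07 CPM (SD, n = 12 and 13). Of 15 receptors and signaling proteins, 4 were higher and 3 lower. *S1pr1*, the receptor of sphingosine 1-phosphate that tightens endothelial junctions, rose by 1.01 (SE 0.062), from 36.0 ± 5.28 to 73.3 ± 5.78 CPM. *Aplnr*, the apelin receptor, had the largest change of any list, a fall of 2.53 (SE 0.21), from 26.7 ± 9.69 to 4.52 ± 1.86 CPM. *Kdr*, the main receptor of VEGF, fell by 0.58 (SE 0.072), from 98.1 ± 14.0 to 65.5 ± 7.16 CPM. Thus changes in opposite directions were found within this list too.

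Of 14 transcription factors, 13 were tested, 4 of them higher and 5 lower. *Klf4*, a zinc-finger factor induced in endothelium by shear stress, rose by 1.40 (SE 0.16), from 20.8 ± 9.90 to 55.7 ± 9.93 CPM. *Foxf1* rose by 0.92 (SE 0.25) at a level under 1 CPM, and *Hhex*, a homeobox factor, fell by 1.15 (SE 0.16), from 1.24 ± 0.299 to 0.564 ± 0.167 CPM.

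By vessel type, 4 of 7 arterial genes were lower and 1 higher. *Dll4*, a ligand of Notch, fell by 0.77 (SE 0.10), *Efnb2*, which encodes ephrin-B2, by 0.66 (SE 0.072), and *Gja4*, which encodes connexin 37, by 0.65 (SE 0.094). These named arterial genes were lower while *Sox17* was higher, but the arterial list did not move as one. *Sema3g* rose by 0.26 (SE 0.058), and *Hey1* and *Gja5*, at 0.15 (SE 0.11) and 0.090 (SE 0.087), were not called. Of 6 capillary genes 2 were higher and 2 lower, with *Rgcc* at 0.97 (SE 0.14), *Gpihbp1*, which carries lipoprotein lipase to the capillary lumen, at 0.68 (SE 0.068), and *Kdr* counted here as well. Of 6 venous genes, *Selp*, which encodes P-selectin, fell by 1.12 (SE 0.17) and *Ackr1* by 0.74 (SE 0.15), and none was higher. Of 5 lymphatic genes tested, *Lyve1* rose by 0.58 (SE 0.16) and the other 4 were not called, while *Ccl21a* was at 0 counts in every library.

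**Figure D4:**
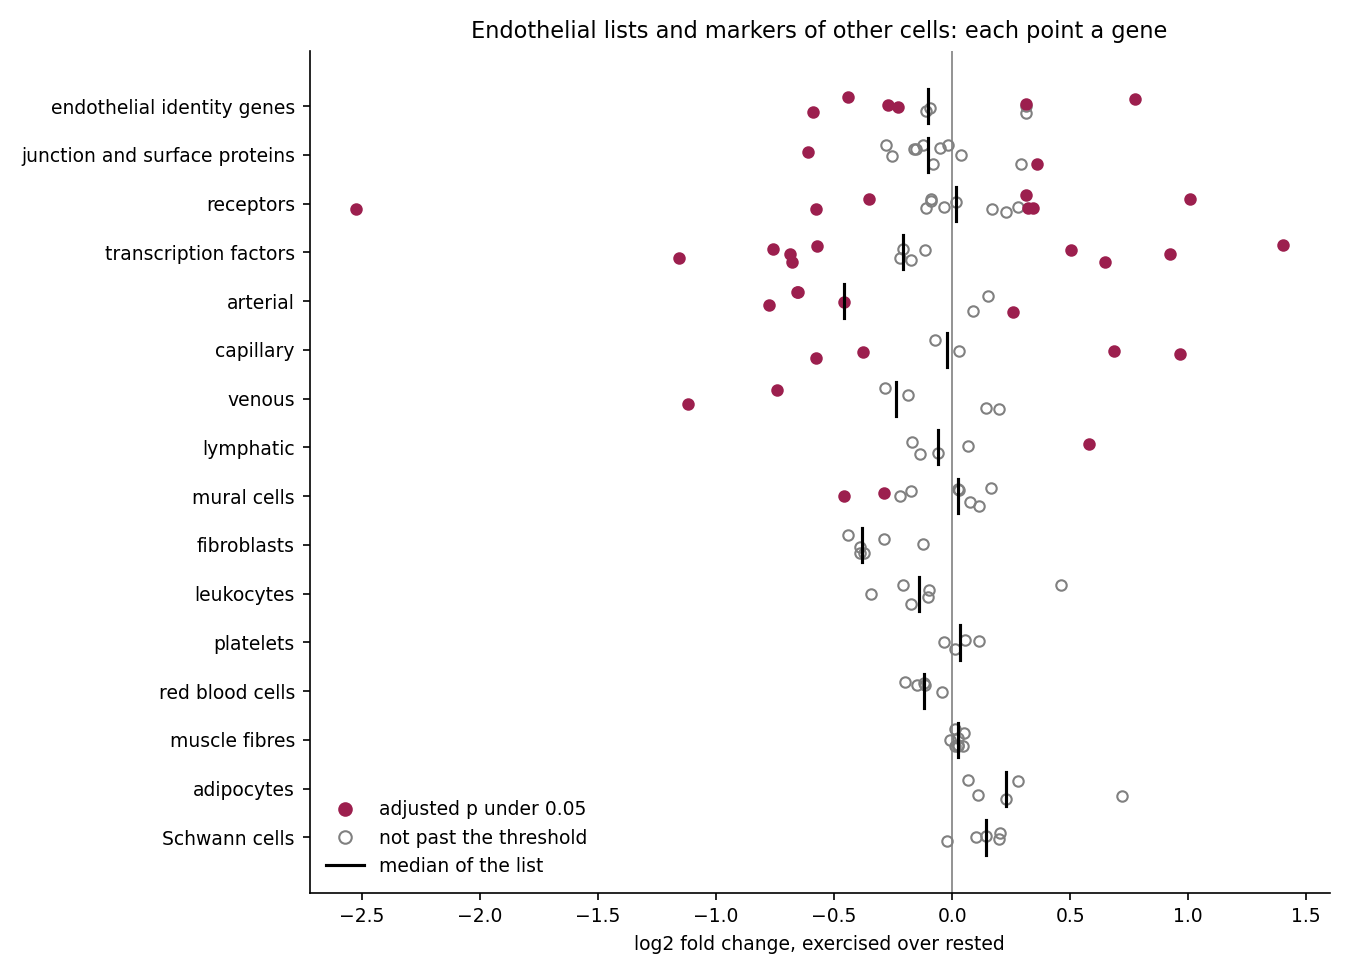
Log2 fold change of exercised over rested mice (horizontal axis) for each tested gene of the endothelial lists and of markers of other cells (rows; each point a gene, filled where the adjusted p in edgeR was under 0.05, black bars the list medians). Filled points lie on both sides of 0 in 5 of the 7 lists of other endothelial genes, while the rows of fibroblasts, leukocytes, platelets, red blood cells, muscle fibers, adipocytes and Schwann cells hold none.

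Markers of the other cells in the muscle were measured beside these genes. Of 9 markers of mural cells, the pericytes and smooth muscle around vessels, 2 were lower, *Pdgfrb* by 0.46 (SE 0.083) and *Kcnj8* by 0.29 (SE 0.062), and their summed level was 1122 to 1370 CPM in rested and 1122 to 1345 CPM in exercised mice. No marker of muscle fibers (8 tested), fibroblasts (6), leukocytes (6), platelets (4), red blood cells (5), adipocytes (5) or Schwann cells (5) was called. The summed level of fiber markers was 67356 to 89665 CPM at rest and 70368 to 85038 CPM after exercise. That of fibroblast markers was 1102 to 5452 CPM and 1211 to 2929 CPM, with log2 fold changes of −0.44 to −0.12 in its 6 genes. That of leukocyte markers was 58.3 to 223 CPM and 38.9 to 173 CPM, and that of platelet markers, which bear on *Esam* and *Pecam1*, 7.80 to 14.8 CPM and 5.92 to 13.8 CPM. Red blood cell markers summed to 73.6 to 464 and 72.9 to 283 CPM, adipocyte markers to 32.7 to 504 and 46.4 to 535 CPM, and Schwann cell markers to 66.0 to 648 and 71.6 to 422 CPM. The part of these cells in the differences of the 10 genes was not tested.

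Lastly, the 10 genes were compared from mouse to mouse within groups, on log2 CPM with the mean of each of the 4 groups removed, over the 25 libraries. Correlations are descriptive, as the values of a library share its depth and scaling. Of the 45 pairs, 43 had a Pearson's r above 0 and 19 above 0.5, with a median of 0.41. The highest r was that of *Pecam1* and *Cdh5* (0.81), followed by *Cdh5* and *Tie1* (0.78) and *Emcn* and *Egfl7* (0.74), and *Sox7* and *Sox18* reached 0.63. *Cldn5* stood out, with r of −0.36 with *Sox17* and −0.20 with *Sox7*. Against the mean of the other 9 genes, *Cdh5* had the highest r (0.84) and *Tie1* and *Pecam1* followed (0.79 and 0.74), while *Sox17* (0.37) and *Cldn5* (0.21) had the lowest. *Sox17* and *Cldn5* had lowest counts of 119 and 97, and *Sox7* and *Sox18*, at 90 and 129, had r of 0.54 and 0.52. Whether depth lowers these r was not tested.

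**Figure D5:**
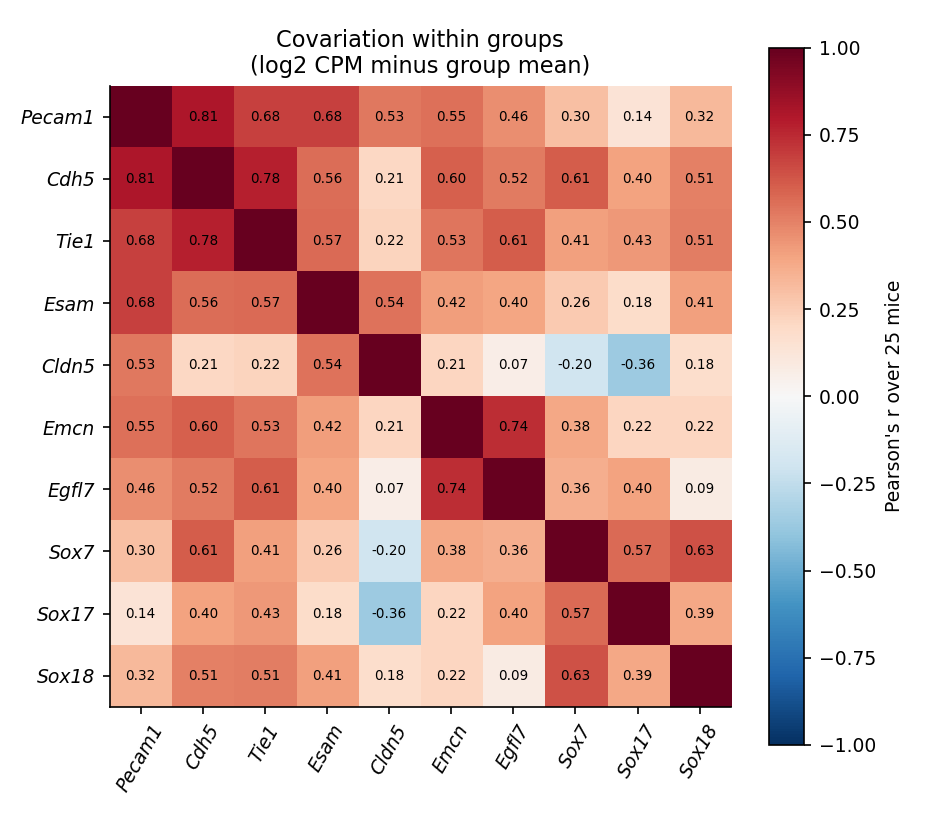
Pearson's r between the 10 genes over 25 mice (rows and columns are genes, color scale from −1 to 1), computed on log2 CPM minus the mean of each genotype and exercise group. The block of *Pecam1*, *Cdh5*, *Tie1* and *Esam* holds values from 0.56 to 0.81, and negative values appear only for *Cldn5* with *Sox7* and *Sox17*.

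Among 12677 other genes of adequate level, those whose deviations were most like the mean of the 10 genes were *Mmrn2* (r = 0.91), *Lfng* (0.86), *Hip1r* (0.84), *Tmem88* (0.81), *Arap3* (0.81), *Rasip1* (0.79), *Scarf1* (0.79), *Plxnd1* (0.79), *Arhgap23* (0.79) and *Nos3* (0.79), over 25 libraries. The median r over all of these genes was 0.011. Without mouse 12 and mouse 13, the pair farthest from the median of the mean of the 10 genes, the r of these genes ran from 0.69 to 0.89. After exercise their log2 fold changes differed in sign, from 0.56 for *Lfng* and 0.46 for *Hip1r* to −0.12 for *Mmrn2* and −0.30 for *Tmem88*.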

How the data were processed

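Total RNA of 1 *soleus* muscle per mouse was depleted of ribosomal RNA and made into stranded libraries read as 75-bp paired ends. The submitters' processing notes name FastQC 0.11.5, STAR 2.5.3a, featureCounts 1.5.3 and mm10, with genes of GENCODE mouse release 15. The deposited values are raw counts per gene and library, made by the authors without normalization or a filter on expression. Groups were taken from the sample titles, and 0 columns belonged to other samples. Symbols were matched for 52403 of 52636 genes (233 without one). The 67 replicate pairs all differed by more than sampling noise (lowest chi-square per gene 14.2).

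The counts were tested with edgeR 4.0.16 (limma 3.58.1, R 4.3.3; quasi-likelihood F test, TMM normalization) in 1 model with a mean per group of genotype and exercise, on the genes kept by filterByExpr (minimum count 10, minimum total 15). Sex was tested in a model with 8 groups of sex, genotype and exercise. P-values were adjusted by Benjamini-Hochberg over all tested genes and called under 0.05. SE were derived from the estimate and its F statistic, and intervals are 95%. CPM use TMM library sizes and RPKM the deposited exon lengths. At the median library, 1 CPM rests on about 32.4 reads. Correlations used log2 CPM with a prior count of 2.

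The genes described and the lists of other genes were chosen with earlier results of these data known. Named from each endothelial list were the 3 called genes with the largest exercise difference, from the other lists the range, and, by Pearson's r with the mean of the 10 genes, the 10 most alike of those with mean log2 CPM of at least 0. *Pdgfrb*, *Kcnj8*, *Ccl21a*, *Sema3g*, *Hey1* and *Gja5* were named after their values were seen. Alternatives were size factors of the median-of-ratios kind (RLE), library totals without TMM, DESeq2 1.42.0, no filter, sex as an additive term, each sex alone, and leaving out each mouse.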

Additional observations from a re-analysis of the deposited data

Results flagged for a closer look

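In groups of 5 to 7 mice, the CPM of each of the 10 genes was searched for a mouse far from the others of its group by Dixon's criterion. Of 40 groups, 4 had such a mouse, and chance gives about 1 in 20, or 2. Mouse 12, a rested mD3AKO male, gave 3 of them, as the highest of its group for *Tie1* (62.5 CPM, next 49.7), *Sox7* (9.62 CPM, next 6.29) and *Sox18* (13.1 CPM, next 9.02). Mouse 1, a rested WT female, was the lowest of its group for *Sox17* (5.04 CPM, next 7.29).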

How the results depend on the processing

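Leaving out each mouse in turn gave 1539 to 1804 genes for exercise, 35 to 48 for genotype, 834 to 1740 for sex (834 without mouse 20) and 3 to 17 for sex by exercise, with 2 to 3 of the 10 genes called higher and 3 to 4 lower after exercise and 0 to 1 called for sex. *Sox18* entered without mouse 12 and *Cdh5* left without mouse 13. The 10 genes were chosen on the exercise contrast, so these counts test nothing. The same holds for every call of the 10 genes after exercise in this section, which shows only how calls shift with the processing. The sex by exercise count of 8 was 3, 3, 4, 4 and 5 without mouse 2, 6, 1, 11 and 3, and 13 and 17 without mouse 22 and 23. Library totals in place of TMM moved the median sex difference of all genes to −0.12. They gave 927 of 16340 genes for exercise (*Sox17* higher, *Cldn5* and *Egfl7* lower, 1 and 2 of the 10). They also gave 29 for genotype, 3 for sex by exercise and 748 for sex (152 higher in males and 596 lower, against 932 and 486 with TMM). With library totals *Cdh5*, *Esam* and *Emcn* were not called after exercise, at −0.24 (SE 0.091), 0.29 (SE 0.10) and −0.29 (SE 0.091). The genotype difference of *Cdh5* turned to −0.023, and the sex differences of *Pecam1*, *Cdh5*, *Tie1*, *Esam*, *Cldn5*, *Emcn* and *Egfl7* to −0.11, −0.089, −0.033, −0.11, −0.073, −0.094 and −0.023. DESeq2 called 81 genes for genotype and 20 for sex by exercise, sex as an additive term gave 72 for genotype, and no filter gave 23 for sex by exercise. With fewer samples, females alone gave 512 of 16895 genes for exercise (0 of the 10 lower, without *Cdh5*, *Cldn5*, *Emcn* and *Egfl7*) and 6 for genotype. In females the log2 fold changes of these genes after exercise were −0.17, −0.68, −0.17 and −0.32, against −0.23, −0.59, −0.27 and −0.44 in all mice. Males alone gave 966 of 16074 genes for exercise (1 of the 10 higher, *Sox17*, and 2 lower, *Emcn* and *Egfl7*) and 23 for genotype. In males *Cdh5*, *Cldn5* and *Esam* were not called after exercise, at −0.29, −0.54 and 0.27. Signs turned in females for genotype in *Cldn5* (−0.038) and *Emcn* (0.024) and for the interaction in *Sox7* (0.089) and *Sox17* (0.038), and in males for exercise in *Sox7* (−0.0059), genotype in *Pecam1* (0.015) and the interaction in *Pecam1* (0.030), *Cdh5* (0.016) and *Egfl7* (−0.029). The cause of the other shifts was not tested.

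Some differences near 0, none of them called, also changed sign when a mouse was left out. For genotype the ranges were −0.046 to 0.00029 for *Pecam1*, −0.0095 to 0.052 for *Cdh5*, −0.055 to 0.0076 for *Emcn* and −0.056 to 0.017 for *Egfl7*. For the interaction they were −0.055 to 0.042 for *Pecam1*, −0.13 to 0.0088 for *Tie1*, −0.086 to 0.21 for *Cldn5* and −0.12 to 0.061 for *Sox17*. For sex they were −0.027 to 0.034 for *Pecam1*, −0.013 to 0.064 for *Cdh5*, −0.037 to 0.026 for *Esam*, −0.088 to 0.18 for *Cldn5*, −0.0091 to 0.057 for *Emcn*, −0.16 to 0.017 for *Sox7* and −0.099 to 0.059 for *Sox18*, and for sex by exercise −0.17 to 0.36 for *Cldn5*. No paired analysis was possible because each mouse number belongs to 1 mouse. Depth limits *Sox7*, *Cldn5*, *Sox17* and *Sox18* most, with lowest counts of 90, 97, 119 and 129.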
